A study of Mus musculus with 9 samples.

Results

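The genes *Zfp36*, *Zfp36l1* and *Zfp36l2*, which encode the ZFP36 family of mRNA decay factors, were followed in mouse granulosa cells through the first hours of induced ovulation. They were chosen by symbol, and all 3 were found among the 25059 gene identifiers of the expression tables. The granulosa cells, the somatic cells that line the ovarian follicle, came from ovaries of Kunming mice at postnatal day 21. All groups share a priming dose of 5 IU PMSG, a gonadotropin from pregnant mares that makes follicles grow, 48 h before hCG. The groups were 0 h (PMSG only), 1 h after a dose of 5 IU hCG, and 6 h after that dose, with 3 libraries each. Chorionic gonadotropin (hCG) binds the receptor for luteinizing hormone (LH) and so sets off ovulation. The labels do not state whether the 3 libraries of a group stem from different animals, so p-values measure the spread between libraries, which may be technical. With no untreated library taken at the later hours in this set, an hCG effect and an effect of the hour cannot be told apart.

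ZFP36 proteins bind AU-rich elements in the 3′ untranslated regions (UTRs) of short-lived mRNAs through a pair of CCCH zinc fingers. They recruit the CCR4-NOT complex, which shortens the poly(A) tail and opens the mRNA to decapping and to exonucleases. ZFP36, also called tristetraprolin, is best known for removing cytokine transcripts, and its gene is an immediate-early gene whose own mRNA the protein can bind. ZFP36L1 is known to act on *Star* mRNA in steroidogenic cells. ZFP36L2 is known in the mouse ovary for its binding to the mRNA of the LH receptor gene *Lhcgr* and for its need in the oocyte. Phosphorylation by the p38-activated kinase MK2 holds the proteins inactive on Ywha adaptor proteins, and the phosphatase PP2A reverses it.

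*Zfp36* (ENSMUSG00000044786) lies on chromosome 7 from 28376784 to 28380253, *Zfp36l1* (ENSMUSG00000021127) on chromosome 12 from 80107754 to 80113013, and *Zfp36l2* (ENSMUSG00000045817) on chromosome 17 from 84183931 to 84187947, all on the minus strand of mm10 in GENCODE M21. The heptamer UAUUUAU, the core of the element these proteins bind, is written TATTTAT in the transcript sequences. It occurred 3 times in the longest annotated 3′ UTR of each gene, which measured 774 bases for *Zfp36*, 1835 for *Zfp36l1* and 1822 for *Zfp36l2*. The sequences below are shown because the mRNAs of these genes carry the element that their own proteins bind, as do those of *Lhcgr* and *Star*. Capitals mark the heptamer, and each line reads 5′ to 3′ on the mRNA strand.
Zfp36 site 1, chr7:28376966-28376994, minus strand: agtgggcccttTATTTATgacgactttat
Zfp36 site 2, chr7:28376951-28376979, minus strand: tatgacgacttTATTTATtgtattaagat
Zfp36 site 3, chr7:28376926-28376954, minus strand: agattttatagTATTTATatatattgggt
Zfp36l1 site 1, chr12:80108422-80108450, minus strand: ttatcaaaacgTATTTATtgccaaactat
Zfp36l2 site 1, chr17:84184914-84184942, minus strand: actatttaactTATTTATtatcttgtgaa
Lhcgr site 1, chr17:88741889-88741917, minus strand: tttagaaaaaaTATTTATctttaagcact
Star site 1, chr8:25814938-25814966, plus strand: agaactgagctTATTTATgaatagaacaa

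At least 1 heptamer was present in the 3′ UTR of 30.5% of the 12399 tested genes for which GENCODE gives one. A match is a description of the letters and not evidence of binding. Promoter windows of 250 bases before the RefSeq start (GRCm38.p6) were available for *Zfp36* and *Zfp36l1*. Stretches of them are shown because both genes rose after hCG. No window was available for *Zfp36l2*, which also rose at 1 h. The window of *Zfp36* held a CArG box, the motif of serum response factor, whose first base was 58 bases before the start. Such a box was found in 1.47% of the 32851 windows in the table. By the GENCODE limits of *Zfp36* given above, this stretch lies inside the gene and not before it. The window of *Zfp36l1* held the AP-1 motif TGANTCA (6.75% of windows, either strand) at −129. Of the 6 motifs searched, a GC box (GGGCGG, 32.7% of windows) was also found for *Zfp36* at −63, and a TATA box (TATAAA, 12.4%) at −29 and a CCAAT box (CCAAT, 33.8%) at −24 for *Zfp36l1*. Neither window held the cAMP half-site TGACG on either strand, which 17.8% of windows did. Capitals mark the motif.
Zfp36 CArG box, chr7:28379267-28379296, minus strand: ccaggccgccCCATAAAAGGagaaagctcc
Zfp36l1 AP-1 motif, chr12:80113124-80113153, minus strand: gaccgcatggcTGATTCAacctcagtgtca

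Levels are in FPKM (fragments per kilobase of transcript, scaled by the mapped fragments of the library), and the FPKM of a gene is the sum of its rows. Between 13587 and 13862 genes reached 1 FPKM in a library. Read depth is unknown. Summed over all genes, libraries held 493222 ± 1980 FPKM at 0 h, with 551992 ± 22575 at 1 h and 526831 ± 12949 at 6 h (mean ± SD of 3 libraries). Granulosa markers had summed levels of 8793 to 9387 FPKM at 0 h, 9049 to 13478 at 1 h and 3717 to 4140 at 6 h, and all 10 were tested. Of them 8 fell and 0 rose at 6 h against 0 h (80% called, against 56.6% of all genes, by the limit given below). At 1 h against 0 h 2 rose and 1 fell (30%, against 15.7%). From 1 h to 6 h 0 rose and 9 fell (90%, against 53.5%). In bulk RNA, fewer cells of a type and less RNA per cell cannot be told apart.

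The 3 genes followed 3 different courses after hCG. *Zfp36* was highest at 6 h, *Zfp36l1* reached its level by 1 h and was near it at 6 h, and *Zfp36l2* was high at 1 h alone. Changes are given as differences in log2(FPKM + 1) with their SE, which understate the changes of low genes. A gene is called changed where the Benjamini-Hochberg adjusted p of limma, over the 14535 genes tested, lies below 0.05. At 1 h against 0 h, 15.7% of tested genes were called, 9.68% higher and 5.98% lower. For 6 h against 0 h the share was 56.6%, 28.8% higher and 27.9% lower. For 6 h against 1 h it was 53.5%, 26.7% higher and 26.9% lower. All 3 genes were called in the first and second of these comparisons, and *Zfp36* and *Zfp36l2* in the last.

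*Zfp36* measured 62.8, 71.3 and 75.5 FPKM at 0 h, 101, 123 and 83.6 FPKM at 1 h, and 155, 175 and 139 FPKM at 6 h. No library of a time overlapped with those of another, though the lowest 1 h library was close to the highest 0 h library. The means were 102 ± 19.5 FPKM at 1 h against 69.9 ± 6.43 FPKM at 0 h (SD, n = 3 each), 1.47 times the 0 h level. This rise was called, at 0.53 ± 0.14 with a limma adjusted p of 0.0280. That call ended under 8 of 19 alternatives. The difference was 0.37 (adjusted p = 0.0966) on libraries of equal FPKM total and 0.32 (0.207) under quantile normalization. It was 0.46 (0.0942) or 0.55 (0.0648) once the first or second 0 h library was left out, and 0.53 (0.0779) or 0.40 (0.0532) once the first or second 1 h library was. At 6 h the mean was 156 ± 17.8 FPKM, 2.23 times that at 0 h, and the difference of 1.15 ± 0.14 was called (limma adjusted p = 7.45e-05). The further rise at 6 h against 1 h was 0.61 ± 0.14 (limma adjusted p = 0.00404). Both later calls held under all 19 alternatives.

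*Zfp36l1* measured 17.4, 20.3 and 22.3 FPKM at 0 h, 50.9, 54.6 and 50.6 FPKM at 1 h, and 44.6, 53.7 and 50.7 FPKM at 6 h. Every library taken after hCG was at least at 44.6 FPKM, above all 0 h libraries, while the 1 h and 6 h libraries overlapped. The mean was 52.1 ± 2.22 FPKM at 1 h against 20.0 ± 2.43 FPKM at 0 h, 2.60 times as high, with a difference of 1.34 ± 0.10 (limma adjusted p = 2.02e-05). At 6 h it was 49.7 ± 4.602 FPKM, 2.48 times the 0 h level, with a difference of 1.27 ± 0.10 (limma adjusted p = 3.98e-06). Between 6 h and 1 h the difference of −0.07 ± 0.10 did not pass (limma adjusted p = 0.575). The tables split *Zfp36l1* into 2 rows with no transcript name. The major row carried 16.3 to 20.3 FPKM at 0 h, 47.4 to 50.8 at 1 h and 43.3 to 44.6 at 6 h, without overlap between 1 h and 6 h. The minor row stayed between 0.00320 and 9.11 FPKM over the 9 libraries, with 0.738, 9.11 and 7.45 FPKM at 6 h. From the major row alone the 6 h to 1 h difference was −0.16 and did not pass (limma adjusted p = 0.139).

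*Zfp36l2* measured 29.1, 30.2 and 37.8 FPKM at 0 h, 61.3, 64.4 and 67.9 FPKM at 1 h, and 25.01, 26.5 and 27.9 FPKM at 6 h. All 1 h libraries lay far above the others, and all 6 h libraries lay below the lowest 0 h library. The mean was 64.5 ± 3.31 FPKM at 1 h against 32.4 ± 4.70 FPKM at 0 h, 1.99 times as high, with a difference of 0.98 ± 0.10 (limma adjusted p = 0.000140). It was 26.5 ± 1.43 FPKM at 6 h against 64.5 FPKM at 1 h, a ratio of 0.410 and a difference of −1.25 ± 0.10 (limma adjusted p = 5.16e-06). The 6 h to 0 h difference of −0.27 ± 0.10 was called by a small margin (limma adjusted p = 0.0356). That call ended under 5 of 19 alternatives (adjusted p = 0.0537 to 0.111), among them the fits that left out replicate 3 of 0 h (−0.16) or, of the 6 h libraries, replicate 1 (−0.23) or replicate 2 (−0.27).

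**Figure D1:**
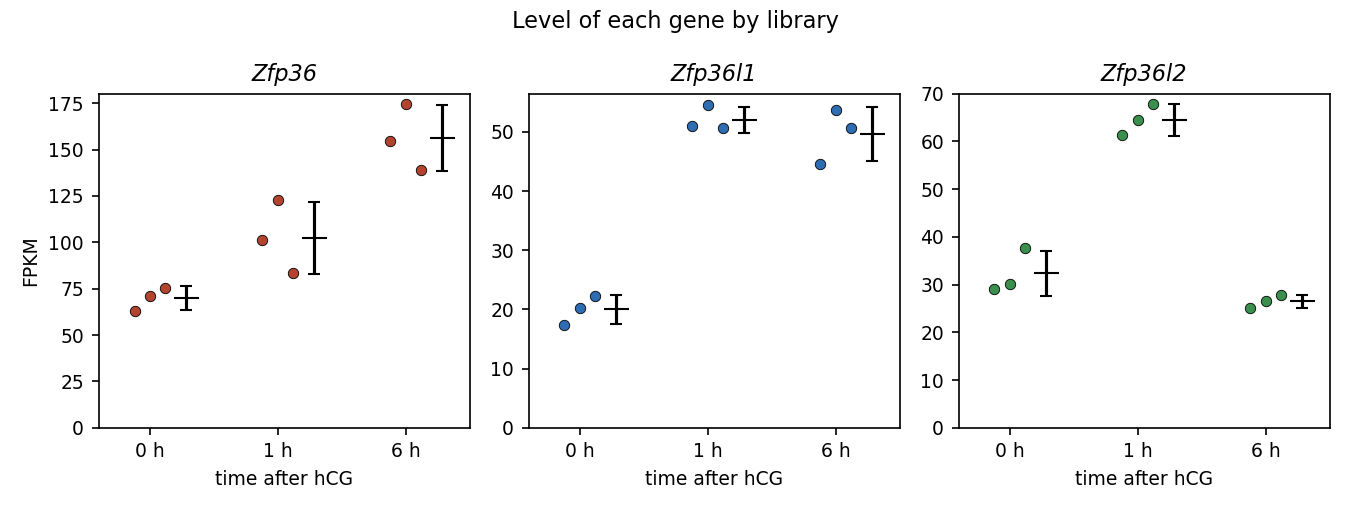
FPKM (linear axes from 0, a separate range for each gene) of *Zfp36*, *Zfp36l1* and *Zfp36l2* at 0, 1 and 6 h after hCG. Points are libraries, and the bar and whiskers beside them are the mean and SD of 3 libraries. *Zfp36* reaches 139 to 175 FPKM at 6 h, *Zfp36l1* stays between 44.6 and 54.6 FPKM at 1 h and 6 h, and *Zfp36l2* is above 60 FPKM at 1 h alone.

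The split of calls at 1 h, 1407 higher and 869 lower, depended on scaling: rescaling each library to the same FPKM total gave 1002 and 2634 and shifted the median of all genes by −0.14, and quantile normalization gave 1142 and 1252. The *Zfp36l1* rise at 1 h was exceeded by 1.61% of tested genes, that of *Zfp36l2* by 2.80% and that of *Zfp36* by 6.85%. Of tested genes 6.49% rose more than *Zfp36* and 5.50% more than *Zfp36l1* at 6 h against 0 h, and at 6 h against 1 h, 3.93% fell more than *Zfp36l2*. The sequence of calls of *Zfp36l2*, higher at 1 h, lower at 6 h than at 1 h and lower at 6 h than at 0 h, was shared by 120 tested genes in all, itself included, or 0.826%, and it holds the 6 h to 0 h call that ended under 5 alternatives. That of *Zfp36* was shared by 395 genes (2.72%), and it holds the 1 h call that ended under 8 alternatives. That of *Zfp36l1* was shared by 404 (2.78%).

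**Figure D2:**
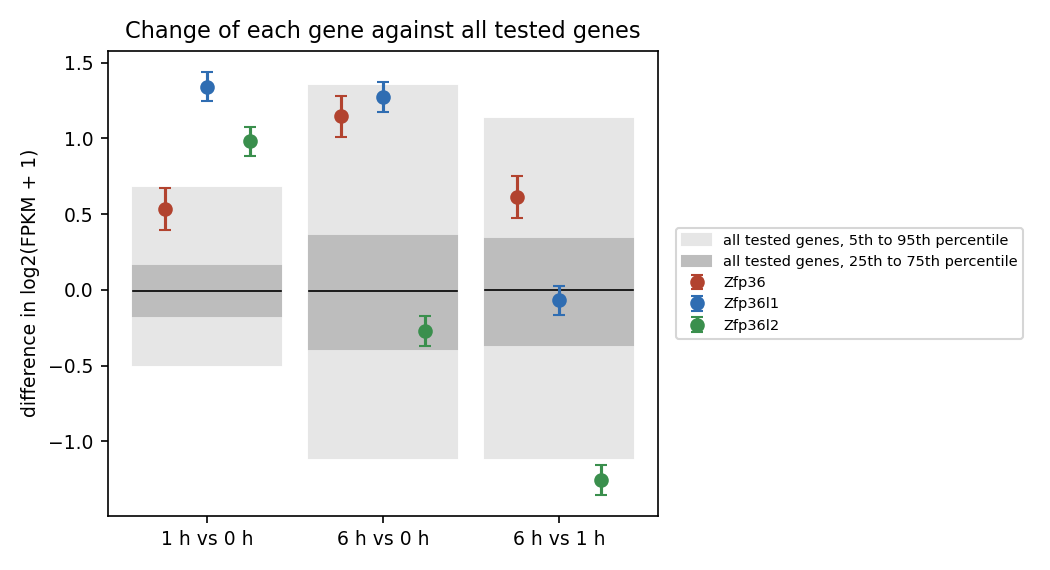
Difference in log2(FPKM + 1) of *Zfp36*, *Zfp36l1* and *Zfp36l2* in the 3 comparisons, with whiskers of 1 SE from limma. Grey boxes span the 5th to 95th and 25th to 75th percentiles of all 14535 tested genes, with the median as a line. *Zfp36l1* (1.34) and *Zfp36l2* (0.98) stand above the box at 1 h, and *Zfp36l2* (−1.25) stands below it at 6 h against 1 h.

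The balance between the members moved with these courses. FPKM is a value per length, so the genes can be compared within a library, and such ratios do not depend on library scaling. Summed over the family, the level was 122 ± 13.1 FPKM at 0 h, 219 ± 20.3 at 1 h and 232 ± 19.8 at 6 h. *Zfp36* held the largest share in all 9 libraries, 55.7 to 58.5% at 0 h, 41.4 to 50.7% at 1 h and 63.9 to 68.9% at 6 h. *Zfp36l1* held 15.9 to 16.7% at 0 h, 22.6 to 25.1% at 1 h and 19.9 to 23.3% at 6 h, and *Zfp36l2* held 24.8 to 27.9%, 26.7 to 33.6% and 10.4 to 12.8% at the same times. At 0 h and 1 h the order in each library was *Zfp36*, *Zfp36l2*, *Zfp36l1*. At 6 h it was *Zfp36*, *Zfp36l1*, *Zfp36l2*.

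The ratio of *Zfp36l1* to *Zfp36l2* was 0.590 to 0.672 at 0 h, 0.746 to 0.848 at 1 h and 1.78 to 2.02 at 6 h, with no overlap between times. That of *Zfp36* to *Zfp36l2* was 1.999 to 2.36 at 0 h, 1.23 to 1.90 at 1 h and 4.99 to 6.58 at 6 h, again with no overlap. That of *Zfp36* to *Zfp36l1* was 3.39 to 3.60 at 0 h, 1.65 to 2.24 at 1 h and 2.74 to 3.46 at 6 h, so it was lower at 1 h than at 0 h in every library and overlapped between 6 h and 0 h. In 8 of these 9 comparisons the exact two-sided permutation p was 0.1, the smallest that 3 against 3 libraries allow (adjusted over 9, 0.1125), and for *Zfp36* to *Zfp36l1* at 6 h against 0 h it was 0.2. No comparison of ratios could therefore reach 0.05.

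**Figure D3:**
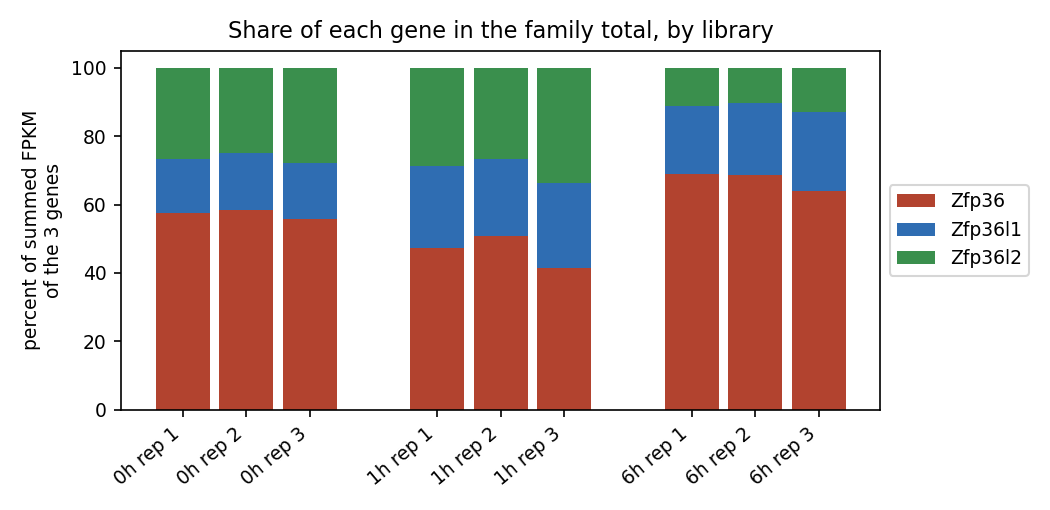
Share of *Zfp36*, *Zfp36l1* and *Zfp36l2* in the summed FPKM of the 3 genes (percent, linear axis from 0) in each of the 9 libraries, by hours after hCG. The *Zfp36l2* share is 10.4 to 12.8% at 6 h, below the 24.8 to 33.6% of the earlier libraries.

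*Zfp36l3*, the fourth gene of the family in mice, is listed at 0 in 8 of 9 libraries and at 0.0373 FPKM in 1 h replicate 3.

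The genes whose courses were most like each member were taken by Pearson's r of log2(FPKM + 1) over the 9 libraries, which share their library and scaling. For *Zfp36* they were *Zfp281*, a zinc finger transcription factor gene (r = 0.991), *Acap2* (0.979), *Dr1*, a repressor of TBP (0.975), *Adrbk1* (0.975) and *Rab14* (0.974). *Zfp281* averaged 13.2 FPKM at 0 h, 16.3 at 1 h and 21.8 at 6 h, a smaller climb than that of *Zfp36*. From its most abundant row alone it was lower at 6 h than at 1 h (−0.20, limma adjusted p = 0.708). Its call at 6 h against 0 h also ended there (limma adjusted p = 0.881), as did that of *Adrbk1* from its own most abundant row (0.106). Calls at 6 h against 1 h ended under 7 of 19 alternatives for *Adrbk1*, 6 for *Acap2* and 3 for *Dr1*. For *Zfp36l1* they were the autophagy kinase gene *Ulk1* (0.991), the G protein signalling regulator gene *Rgs2* (0.980), the co-chaperone gene *Bag3* (0.976), *Rbm18* (0.975) and the repressor gene *Klf3* (0.974). *Rgs2* averaged 80.3 FPKM at 0 h, 574 at 1 h and 468 at 6 h, and *Klf3* 12.7, 40.7 and 36.6 FPKM. For *Zfp36l2* they were *Isca1* (0.984), the kinase gene *Pim3* (0.983), *Pnrc1* (0.979), *Hps4* (0.978) and *Arl13b* (0.977). *Pim3* averaged 23.1 FPKM at 0 h, 70.5 at 1 h and 18.5 at 6 h. Between the members themselves r was 0.79 for *Zfp36* and *Zfp36l1*, 0.37 for *Zfp36l1* and *Zfp36l2*, and −0.22 for *Zfp36* and *Zfp36l2*.

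The deadenylation list joined genes of the CCR4-NOT complex, which ZFP36 proteins recruit, with genes of other deadenylases and of the BTG/TOB family. Those called at 1 h were all of the BTG/TOB family, whose products also bind the deadenylases. Of 19 tested genes 5 rose and 0 fell at 1 h against 0 h (26.3% called, against 15.7% of all genes). The 5 were *Btg1*, *Btg2*, *Btg3*, *Tob1* and *Tob2*, and the median difference was −0.09, against −0.0046 over all genes. *Btg1* averaged 178 ± 32.3 FPKM at 1 h against 27.7 ± 1.13 FPKM at 0 h (2.63 ± 0.12), and *Btg2* 376 ± 63.4 FPKM against 61.0 ± 7.63 FPKM (2.60 ± 0.15). The call of *Btg3* (0.68, adjusted p = 0.0365) ended under 13 of 19 alternatives. On libraries of equal FPKM total 3 rose and 9 fell, and after quantile normalization 3 rose and 2 fell. Between 6 h and 1 h 7 rose and 7 fell (73.7% called, against 53.5%), *Btg1* (−2.25 ± 0.12) and *Btg2* (−2.05 ± 0.15) the most. Between 6 h and 0 h 9 rose and 4 fell (68.4% called, against 56.6%), and the catalytic subunit gene *Cnot6* was at 85.5 ± 4.37 FPKM at 6 h against 168 ± 20.1 FPKM at 0 h (−0.96 ± 0.08).

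In the decapping and exonuclease list 1 of 21 genes rose at 1 h against 0 h, the helicase gene *Ddx6*, whose call ended under both other scalings, and 0 fell (4.76% called, against 15.7% of all genes). At 6 h against 0 h 9 rose and 4 fell (61.9%, against 56.6%), with a median of 0.07 that turned to −0.01 on libraries of equal FPKM total. The decapping scaffold gene *Edc4* averaged 26.5 ± 1.34 FPKM at 6 h against 17.7 ± 1.01 FPKM at 0 h (0.56 ± 0.08), and the decapping activator gene *Patl1* 21.2 ± 0.853 FPKM against 14.4 ± 1.03 FPKM (0.52 ± 0.07). The exosome subunit gene *Exosc5* fell (−0.58 ± 0.15). Of the list 6 rose and 3 fell at 6 h against 1 h (42.9%, against 53.5%), and 7 rose and 0 fell on libraries of equal FPKM total.

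Of 25 genes for other mRNA-binding regulators, 23 were tested. At 1 h against 0 h 6 rose and 0 fell (26.1% called, against 15.7% of all genes), at 6 h against 0 h 11 rose and 1 fell (52.2%, against 56.6%), and at 6 h against 1 h 5 rose and 3 fell (34.8%, against 53.5%). The cytoplasmic polyadenylation factor gene *Cpeb4* averaged 51.7 ± 8.56 FPKM at 1 h against 19.0 ± 1.05 FPKM at 0 h (1.39 ± 0.12), and *Cpeb2* 9.71 ± 1.15 FPKM against 4.05 ± 0.286 FPKM (1.08 ± 0.11). *Zc3h12c*, of the Regnase family, was at 17.3 ± 0.267 FPKM at 1 h against 7.99 ± 0.690 FPKM at 0 h (1.03 ± 0.10). *Ybx1*, an mRNA-packaging protein gene, averaged 1989 ± 247 FPKM at 6 h against 252 ± 30.02 FPKM at 0 h (2.97 ± 0.14), and reads of near-identical copies could have been split there. On libraries of equal FPKM total 2 of the list fell at 1 h, and 9 rose and 2 fell at 6 h against 1 h.

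Among kinases, phosphatase subunits and adaptors that act on ZFP36 proteins or upstream of them, 21 of 24 genes were tested. At 1 h against 0 h 8 rose and 0 fell (38.1% called, against 15.7% of all genes). These counts were 4 and 2 on libraries of equal FPKM total and 4 and 0 after quantile normalization. *Mapkapk2*, which encodes MK2, averaged 38.1 ± 2.67 FPKM at 1 h against 24.99 ± 1.36 FPKM at 0 h (0.59 ± 0.09, limma adjusted p = 0.00228). At 6 h against 0 h 14 rose and 2 fell (76.2% called, against 56.6%), with a median of 0.33. At 6 h against 1 h 12 rose and 2 fell (66.7%, against 53.5%). The p38 activator genes differed in direction at 6 h against 0 h: *Map2k3* was at 22.6 ± 0.616 FPKM at 6 h against 11.6 ± 0.261 FPKM at 0 h (0.91 ± 0.07), and *Map2k6* at 4.21 ± 0.722 FPKM against 10.5 ± 0.880 FPKM (−1.15 ± 0.12). *Ywhaz*, an adaptor gene, averaged 833 ± 115 FPKM at 6 h against 193 ± 5.60 FPKM at 0 h (2.09 ± 0.10).

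Transcripts reported as targets of ZFP36 proteins did not move as a block. Of 37 on the list 26 were tested, and the other 11, with *Tnf*, *Csf2* and *Ifng* among them, stayed at or below 0.981 FPKM in every library. At 1 h against 0 h 11 rose and 0 fell (42.3% called, against 15.7% of all genes), with a median of 0.37. By 6 h, against 0 h, 15 rose and 3 fell (69.2%, against 56.6%), with a median of 0.43, and at 6 h against 1 h 10 rose and 7 fell (65.4%, against 53.5%), with a median of 0.06. On libraries of equal FPKM total these counts were 10 and 1, 14 and 5, and 10 and 6. Of the 26, 5 met the filter on low values only through the libraries of a single time, *Il6*, *Il23a*, *Cxcl2* and *Plaur* through 6 h and *Ccl2* through 1 h. The 4 that entered through 6 h are among the genes counted as higher at 6 h in both comparisons. The other 21 targets had 11 higher and 3 lower at 6 h against 0 h (66.7% called), with a median of 0.41, and 6 higher and 7 lower at 6 h against 1 h (61.9%), with a median of −0.13. At least 1 heptamer was present in the 3′ UTR of 22 of the 26 (84.6%, against 30.5% of all tested genes). The genes were listed as targets of proteins that bind this element, so the share describes the list and tests nothing. Median 3′ UTR lengths were 1429.5 bases for the list and 1173 for all tested genes that have one.

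Targets named from the list differed among themselves. *Lhcgr*, the LH receptor gene, averaged 251 ± 28.5 FPKM at 0 h, 337 ± 71.6 at 1 h and 110 ± 29.0 at 6 h. Its difference at 1 h did not pass (0.41 ± 0.20, limma adjusted p = 0.194), and it fell at 6 h against 1 h by 1.62 ± 0.20 (limma adjusted p = 0.000100). *Star*, which carries cholesterol into the mitochondrion, averaged 96.4 ± 10.5 FPKM at 0 h, 308 ± 37.4 at 1 h and 606 ± 86.0 at 6 h, and rose in every comparison. So did *Ptgs2*, the inducible prostaglandin synthase gene, at 0.712 ± 0.377 FPKM at 0 h, 46.4 ± 13.0 at 1 h and 119 ± 32.6 at 6 h. *Pim3* fell at 6 h against 1 h (−1.86 ± 0.12).

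**Figure D4:**
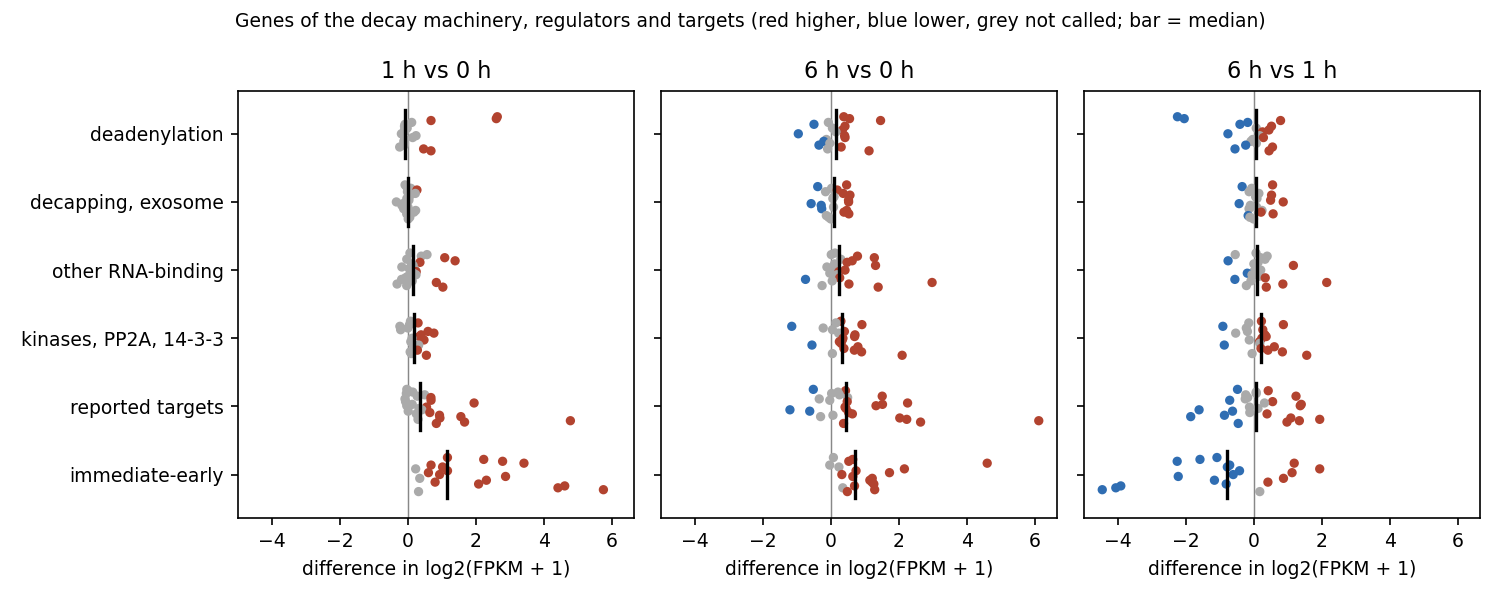
Difference in log2(FPKM + 1) of each tested gene of 6 lists in the 3 comparisons, with a bar at the median of the list. Red points are called higher, blue points lower and grey points neither (limma adjusted p below 0.05). The deadenylation list has its 2 outlying points, *Btg1* and *Btg2*, near 2.6 at 1 h against 0 h.

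Immediate-early transcription factor genes, the class to which *Zfp36* is usually assigned, had 16 of 19 members higher and 0 lower at 1 h against 0 h (84.2% called, against 15.7%), with a median of 1.16. Between 6 h and 1 h 13 fell and 5 rose (94.7%, against 53.5%), with a median of −0.78. At 6 h against 0 h 15 were higher and 0 lower (78.9%, against 56.6%), with a median of 0.69. *Fosl1*, among those higher at 6 h in both comparisons, met the filter only through 6 h. *Nr4a1* averaged 847 ± 242 FPKM at 1 h against 33.0 ± 6.36 FPKM at 0 h (4.61 ± 0.22), and *Nr4a3* was at 2.10 ± 0.666 FPKM at 6 h against 66.5 ± 5.85 FPKM at 1 h (−4.46 ± 0.16). *Egr3* was higher at 6 h than at 1 h, with 34.6 ± 6.22 FPKM against 14.7 ± 2.67 FPKM (1.18 ± 0.16), the direction seen for *Zfp36*.

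Markers of other cells and of handling moved with time in part. Heat-shock genes, which also mark tissue handling, had summed levels of 723 to 921 FPKM at 0 h, 1236 to 1460 at 1 h and 1024 to 1231 at 6 h. Of 9 tested 6 rose at 1 h against 0 h (66.7%, against 15.7% of all genes called), or 3 under quantile normalization, and 5 at 6 h against 0 h (55.6%, against 56.6%), with 0 lower. *Bag3*, named above for its likeness to *Zfp36l1*, is among them. Oocyte markers had summed levels of 38.6 to 57.3 FPKM at 0 h, 49.1 to 60.0 at 1 h and 66.4 to 99.7 at 6 h. Of them 7 of 7 tested rose at 6 h against 0 h (100% called, against 56.6% of all genes). Leukocyte markers, of cells in which *Zfp36* is abundant, summed to 14.9 to 28.5 FPKM at 0 h, 21.6 to 32.5 at 1 h and 14.1 to 20.0 at 6 h. Of 12 listed 6 were tested, with a median difference of 0.32 at 1 h against 0 h. None of the 6 was called higher in any comparison, and none was called at 1 h against 0 h (0%, against 15.7% of all genes). Only *Lyz2* was called, lower at 6 h than at 0 h (16.7%, against 56.6%) and than at 1 h (16.7%, against 53.5%). Against 0 h, at 6 h 4 of 8 theca and stroma markers were lower, as were 2 of 4 tested erythroid markers, and 3 of 7 endothelial markers were higher. These are shares of 50%, 50% and 42.9%, against 56.6% of all genes called. None of these lists had a call at 1 h against 0 h (0%, against 15.7% of all genes). No marker of any list was at 0 in all 9 libraries. The part of granulosa, leukocyte, heat-shock, oocyte, theca, endothelial and erythroid signal in the results on the 3 genes was not tested.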

How the data were processed

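RNA-seq of granulosa cells was deposited as one table per library, 9 in all, with 54759 rows each. Trizol extraction and an Illumina TruSeq kit are stated per the labels' protocols. The submitters' processing notes list HISAT2 2.0.5 and mm10. The values are FPKM, per the file headers. For the quantifying program, its annotation, filters and strandedness nothing is given in the sources used here, so overlapping genes could share reads. Between 9364 and 9682 rows per library lie above 0 but below 0.001 FPKM, so reads could not be recovered and no counting interval is given.

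Rows were summed per gene identifier. For 27 genes whose symbol had turned into a date, the symbol was looked up by identifier. The test was limma 3.58.1 (R 4.3.3) on log2(FPKM + 1) for the 14535 genes that reached 1 FPKM in 3 libraries (trended prior variance, all 9 libraries in a single fit of 3 group means, 6 residual degrees of freedom, no covariate). P-values were adjusted by Benjamini-Hochberg over all genes tested, separately for each comparison. The comparisons share libraries. The fit was tested on simulated data. Ratios between members were compared by exact permutation.

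The members and gene lists were chosen with earlier results of these data known. Named genes are the members, the 5 genes with the highest r to each (5 FPKM or more in their highest group, no predicted, clone or assembled names), and up to 4 called genes with the largest change per list and comparison. Outside this rule, *Tob1*, *Zfp36l3*, the untested cytokine genes, *Il6*, *Cxcl2*, *Ccl2*, *Lhcgr* at 1 h, and *Egr3*, *Star* and *Ptgs2* at 6 h against 1 h were named after their values were seen. The 3′ UTR of a gene is the longest among complete-ended transcripts of the GENCODE M21 basic set, and promoter windows are from RefSeq.

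Alternatives were other pseudocounts (0.1 and 0.5), filters and scalings, the most abundant row alone, a replicate block, 6-library fits, a constant prior variance and leaving out each library.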

Additional observations from a re-analysis of the deposited data

How the results depend on the processing

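Each member and each count of calls was recomputed under 19 alternatives. *Zfp36* at 6 h against 0 h (0.99 to 1.23) and against 1 h (0.48 to 0.75), *Zfp36l1* at 1 h (1.19 to 1.42) and 6 h (1.18 to 1.35) against 0 h, and *Zfp36l2* at 1 h against 0 h (0.82 to 1.09) and at 6 h against 1 h (−1.29 to −1.19) kept direction and call in all. The *Zfp36* rise at 1 h lost its call with no filter (0.53, adjusted p = 0.0525), on libraries of equal FPKM total (0.37), under quantile normalization (0.32) and from the 6 libraries compared alone (0.53, 0.0513); leaving out a library gave 0.40 to 0.67. The *Zfp36l2* difference at 6 h against 0 h lost its call from the 6 libraries alone (−0.27, 0.0542) and with a constant prior variance (−0.27, 0.0537), and was −0.34 to −0.16 without a library. The *Zfp36l1* difference at 6 h against 1 h turned to 0.0039 without 6 h replicate 1, and was −0.13 at the other end of that range. From its most abundant row it was −0.16. *Zfp281* at 6 h against 1 h turned to −0.20 from its most abundant row, and its call at 6 h against 0 h ended. Genes lower at 1 h against 0 h numbered 2634 on libraries of equal FPKM total, and 297 to 1228 without a library (lowest without 1 h replicate 3); genes higher numbered 924 to 1629. The cause of these changes was not tested. A fit without a library has fewer samples and also lacks the values of that library.

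By the correlation of their deviations, −0.08 to 0.15, same-numbered libraries were not treated as paired. In 12 of 18 cases, where chance gives 6, a library matched best with its own number, a hint of pairing from the data and not from the design. With a replicate block, 1306 genes were higher and 685 lower at 1 h against 0 h, and the block changed no call of the 3 genes (*Zfp36* at 1 h, adjusted p = 0.0225). Depth is unknown from FPKM, so limits at low levels cannot be given.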

Other observations

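The share of genes with the AU-rich heptamer was counted by call, as a description with no test. At 1 h against 0 h it was present in the 3′ UTR of 517 of 1211 genes called higher (42.7%), 164 of 667 called lower (24.6%) and 29.5% of those not called, with median 3′ UTR lengths of 1492, 1200 and 1125 bases. At 6 h against 0 h the shares were 34.9% of 3743 genes called higher, 27.0% of 3499 called lower and 29.7% of the others, with median lengths of 1338, 1040 and 1128 bases. At 6 h against 1 h they were 31.8%, 29.7% and 30.2%, with median lengths of 1282.5, 1095.5 and 1140 bases. The classes differ in length as well, with the longest median in the genes called higher each time, while at 1 h the genes called lower had a longer median and a smaller share than those not called. The part of length in the shares was not tested.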
